A study of Mus musculus with 9 samples.

Results

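The genes of the inflammasome and of pyroptosis were followed in mouse bone marrow-derived macrophages treated with tenascin C (TNC), a matrix glycoprotein, with or without an inhibitor of Toll-like receptor 4 (TLR4). The set held 8 genes: the sensors Nlrp3, Nlrc4, Naip2 and Naip5, the adaptor Pycard, the inflammatory caspases Casp1 and Casp4, and the pore-forming protein Gsdmd. They were found through the platform annotation of the arrays, taking each probe set that names 1 of these symbols and no other gene. This gave 9 probe sets for 7 of the 8 genes, out of 45037 probe sets and 18193 genes on the arrays. Pycard had 3 probe sets and each of the other 6 genes had 1, and Nlrc4 was not analysed here because no probe set carried its symbol alone.

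The data were 9 arrays in 3 groups of 3. All cells came from bone marrow of BALB/c mice aged 8 to 10 weeks, were grown for 7 days in medium with M-CSF and 10% serum, and spent the last night in 1% serum with M-CSF. TNC + TLR4i cells had 3 µM of the TLR4 inhibitor TAK-242 for 1 h and then 2 µg/ml recombinant TNC for 6 h, TNC + vehicle cells had 0.1% DMSO for 1 h and then the same TNC, and untreated cells carry no agent in their labels. No group had vehicle or inhibitor alone, so against untreated cells the part of TNC cannot be told apart from that of DMSO or TAK-242. Replicates are described as biological, but separate mice are not stated, and the p-values measure only how far these arrays spread, which may be technical.

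Inflammasomes are protein platforms that macrophages assemble in the cytosol when they meet microbial products or damage. A sensor of the NLR family recruits the adaptor encoded by Pycard (ASC), which gathers the protease encoded by Casp1, and this protease cuts the precursors of interleukin-1β and interleukin-18 and the gasdermin encoded by Gsdmd, whose freed part opens pores in the plasma membrane and kills the cell by pyroptosis. Mouse Casp4 encodes the caspase that binds lipopolysaccharide in the cytosol and cuts the same gasdermin directly. In macrophages a first signal through a Toll-like receptor is known to raise the transcripts of several of these components, and a second signal is needed to assemble the complex. The arrays measure transcripts only and say nothing of assembly, cleavage or cell death.

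Values are log2 signals after robust multiarray averaging (RMA), in which a difference of 1 is a doubling. A gene stands for its brightest probe set across all 9 arrays. Calls needed a limma p under 0.05 after Benjamini-Hochberg adjustment over all 45037 probe sets together with a change of at least 1.5-fold, which is 0.585 on the log2 scale. Levels are compared between groups for 1 probe set and never between genes, because probes differ in brightness.

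The macrophage label was checked against marker genes. All 8 measured macrophage markers, among them Csf1r, Adgre1 and Lyz2, were at 8.59 or above in every array, and their summed linear signal was 71406 to 73094 in TNC + TLR4i, 78909 to 82785 in TNC + vehicle and 75203 to 75797 in untreated arrays. Of these 8 markers 1 was called higher with TNC (Fcgr1, 0.94) and 2 lower in TNC + TLR4i than in TNC + vehicle (Fcgr1, -1.15, and Cd14, -0.61). At an unadjusted p below 0.05 limma gave 2 higher with TNC (Fcgr1, and Cd14 at 0.47). It gave 3 lower (Cd68 and Itgam, -0.25 each, and Mertk, -0.20). In TNC + TLR4i against TNC + vehicle it gave 2 higher and 3 lower. The 8 endothelial markers had a summed linear signal of 755 to 770 in TNC + TLR4i, 1408 to 1612 in TNC + vehicle and 809 to 840 in untreated arrays. Without Kdr the sum was 573 to 600 in TNC + TLR4i, 643 and 652 in TNC + vehicle replicates 2 and 3, 1100 in TNC + vehicle replicate 1, and 603 to 611 in untreated arrays. Of these markers 1 was called higher with TNC (Kdr, 1.63) and 2 lower in TNC + TLR4i than in TNC + vehicle (Kdr, -1.96, and Cdh5, -0.63). TNC + vehicle replicate 1 stood apart here, with 7 of the 8 above the other TNC + vehicle arrays and a median difference of 0.64. Of 7 fibroblast markers 6 were also above the other TNC + vehicle arrays in that replicate, with a median difference of 0.17. Neutrophil markers had a summed signal of 1270 to 1421 in TNC + TLR4i, 1265 to 1700 in TNC + vehicle and 1214 to 1984 in untreated arrays, with 0 of 9 called in any comparison (limma; with TNC, 1 higher and 2 lower at an unadjusted p below 0.05). Untreated replicate 2 stood apart for S100a9 (8.76, against 7.66 and 7.63 in untreated replicates 1 and 3), S100a8 (8.71, against 7.74 and 7.63) and Ngp (8.52, against 7.60 and 7.31). For Mpo and Cxcr2 it was the lowest untreated array (6.70 and 6.16). Of the other lists (dendritic, T and NK, B, mast, fibroblast and erythroid cells) 1 marker was called, Epor, 0.62 higher in TNC + TLR4i than in TNC + vehicle. Not called does not mean absent. The 7 fibroblast markers had a summed linear signal of 13896 to 16916 in TNC + TLR4i, 14109 to 16210 in TNC + vehicle and 15394 to 18062 in untreated arrays. Col1a2 among them was at 13.12 or above in every array, so the macrophage markers do not show that the cultures were free of other cells. RMA gives no value of 0, so no marker could be at 0. The part of these markers in the results was not tested, and values without TNC + vehicle replicate 1 are given beside the 4 members called. In these bulk samples fewer cells of a type and less RNA per cell cannot be told apart.

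**Figure D1:**
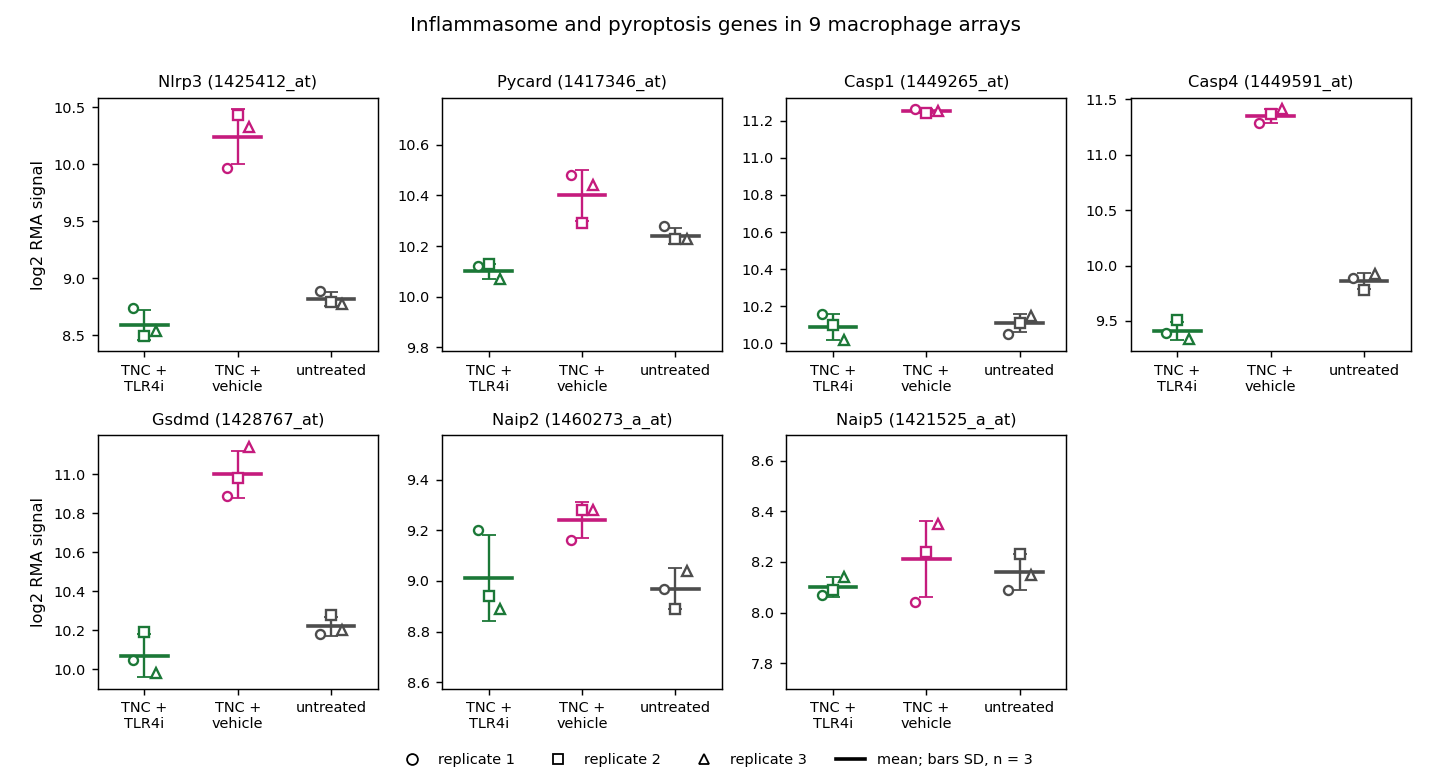
Log2 RMA signal (y axis, a separate range for each gene) of the 7 measured inflammasome and pyroptosis genes in each array, by group. Symbols are arrays, wide lines are group means and bars are SD (n = 3). For Nlrp3, Casp1, Casp4 and Gsdmd the 3 TNC + vehicle arrays lie above the 6 others.

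The transcripts of the sensor Nlrp3, of both caspases and of the pore-former rose with TNC relative to untreated cells. Of the 7 measured genes, 4 rose with TNC (Casp4 2.81-fold, Nlrp3 2.69-fold, Casp1 2.21-fold and Gsdmd 1.72-fold), 0 fell, and Pycard, Naip2 and Naip5 did not pass. At an unadjusted p below 0.05 limma gave 6 higher and 0 lower, beside 3236 higher and 3793 lower of all 18193 genes. Over all 18193 genes 3.74% were called higher and 4.05% lower in this comparison, and the median change was 0.78 for the 7 genes against 0.01 for all genes. Without a minimum fold 5 of the 7 passed as higher and 0 as lower, beside 12.1% and 16% of all genes. The groups did not overlap for 6 of the 7, all higher with TNC, beside 19.7% of all genes that were higher without overlap and 22.6% that were lower.

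Nlrp3 (probe set 1425412_at), the sensor of potassium loss and membrane damage, had 8.74, 8.49 and 8.54 in TNC + TLR4i arrays, 9.97, 10.43 and 10.33 in TNC + vehicle arrays, and 8.89, 8.79 and 8.77 in untreated arrays. The 3 groups did not overlap, with the TNC + TLR4i arrays lowest. The rise with TNC was 1.43 ± 0.10 (SE, limma adjusted p = 1.24e-06, 95% interval 1.20 to 1.66), the 161st largest of 18193 genes. Its spread was widest with TNC, where replicate 1 was the lowest (mean 10.24 ± 0.24, SD, n = 3), and without that array the rise was 1.56.

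Casp4 (1449591_at), the caspase that binds lipopolysaccharide, had 9.39, 9.51 and 9.34 in TNC + TLR4i arrays, 11.29, 11.37 and 11.41 in TNC + vehicle arrays, and 9.89, 9.78 and 9.92 in untreated arrays. Again no group overlapped another. The rise with TNC, 1.49 ± 0.07 (adjusted p = 4.13e-08, limma), ranked 134th of all, and its interval (1.34 to 1.64) overlapped that of Nlrp3. Without TNC + vehicle replicate 1 it was 1.52.

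Casp1 (1449265_at), the protease of the canonical inflammasome, had 10.16, 10.10 and 10.02 in TNC + TLR4i arrays, 11.26, 11.24 and 11.25 in TNC + vehicle arrays, and 10.05, 10.11 and 10.15 in untreated arrays. The TNC + vehicle arrays stood apart and lay within 0.02 of each other, while the other groups overlapped. The rise was 1.14 ± 0.06 (adjusted p = 1.55e-07, limma), ranking 273rd, and 1.14 without TNC + vehicle replicate 1. Casp1 and Casp4 are neighbours on chromosome 9 with no annotated gene between them.

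Gsdmd (1428767_at), the pore-former, had 10.05, 10.19 and 9.98 in TNC + TLR4i arrays, 10.89, 10.98 and 11.14 in TNC + vehicle arrays, and 10.18, 10.28 and 10.20 in untreated arrays. Here too the TNC + vehicle arrays were all higher than the rest, and the other groups overlapped. The rise, 0.78 ± 0.08 (adjusted p = 1.42e-05, limma; 95% interval 0.61 to 0.95), was the smallest of the 4 and ranked 486th, and its interval lay below those of the other 3. Without TNC + vehicle replicate 1 it was 0.84.

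The adaptor and the Naip sensors were not called. Pycard (1417346_at) had 10.12, 10.13 and 10.07 in TNC + TLR4i arrays, 10.48, 10.29 and 10.44 in TNC + vehicle arrays, and 10.28, 10.23 and 10.23 in untreated arrays. These groups did not overlap, but the change of 0.16 had an adjusted p of 0.138 (limma) and an interval of 0.01 to 0.31, inside 1.5-fold. The gene's other probe sets, 1417347_at and 1446926_at, lay at 6.19 to 6.66 in every array, below the array medians of 6.72 to 6.74, with changes with TNC of 0.04 and -0.06 (adjusted p = 0.819 and 0.742), so they carried little signal.

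Naip2 and Naip5 encode receptors that bind bacterial type III secretion rod protein and flagellin and then join with the product of Nlrc4. Naip2 (1460273_a_at) had 9.20, 8.94 and 8.89 in TNC + TLR4i arrays, 9.16, 9.28 and 9.28 in TNC + vehicle arrays, and 8.97, 8.89 and 9.04 in untreated arrays. The TNC + vehicle arrays lay above the untreated ones, and the TNC + TLR4i arrays overlapped both. Its difference with TNC, 0.27 ± 0.07, passed the limma test (adjusted p = 0.0145) but at 1.21-fold it was short of the fold threshold. Naip5 (1421525_a_at) had 8.07, 8.09 and 8.14 in TNC + TLR4i arrays, 8.04, 8.24 and 8.35 in TNC + vehicle arrays, and 8.09, 8.23 and 8.15 in untreated arrays. Its groups overlapped throughout, and with a change of 0.05 (adjusted p = 0.721; 95% interval -0.13 to 0.24) a rise of 1.5-fold lay outside the interval.

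**Figure D2:**
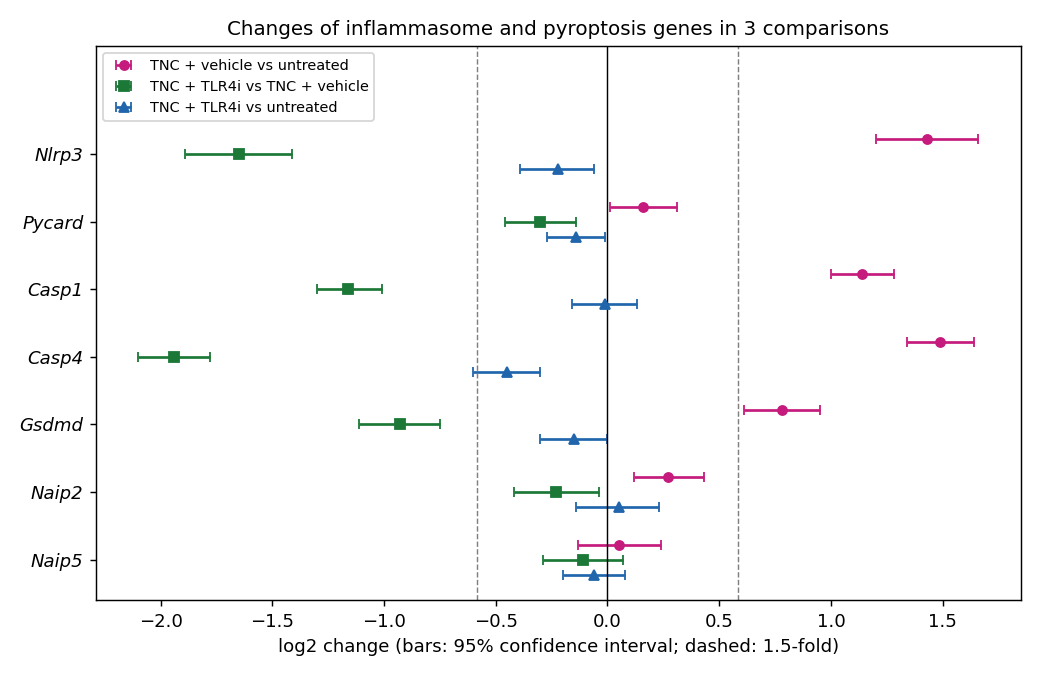
Log2 change (x axis) of each measured gene in the 3 comparisons, with 95% confidence intervals (bars) and the 1.5-fold thresholds (dashed lines). Nlrp3, Casp1, Casp4 and Gsdmd lie to the right of the threshold for TNC + vehicle vs untreated and to the left of it for TNC + TLR4i vs TNC + vehicle. In TNC + TLR4i vs untreated all 7 points lie between the thresholds, with Casp4 lowest at -0.45.

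The Naip genes are close copies. Naip2 and Naip5 lie side by side on chromosome 13 with no annotated gene between them. The likeness extends to a part of their promoters: a stretch of 80 bases just upstream of both start sites differed at 5 positions (93.8% the same). It was chosen as the best-matching ungapped stretch of the 2 windows of 250 bases, so its likeness does not stand for the whole windows. It is shown at chr13:100202128-100202207 for Naip2 and chr13:100247349-100247428 for Naip5 (GRCm38.p6, minus strand, RefSeq), with shared bases in capitals and differing bases in lower case.
Naip2: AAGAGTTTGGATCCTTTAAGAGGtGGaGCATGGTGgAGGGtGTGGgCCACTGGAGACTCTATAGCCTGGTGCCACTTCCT
Naip5: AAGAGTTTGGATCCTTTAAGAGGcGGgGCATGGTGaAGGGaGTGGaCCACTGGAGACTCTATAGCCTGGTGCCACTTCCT
Whether the probes of either set also bind the transcript of the other was not tested.

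The promoters of the 8 genes were searched for the letters bound by the transcription factors of the TLR4 pathway. These sequences and the Naip stretch above are from the reference genome, and the sequence of the BALB/c mice used was not read. RefSeq gave promoters for 7 of the 8 genes (that of Gsdmd was not analysed here), and the 250 bases before each start were searched on both strands. The motifs were the kappaB site of NF-kB, the interferon-stimulated response element, the composite element of IRF with PU.1, the gamma-activated site of STAT factors (TTCNNNGAA) and the AP-1 site (TGANTCA). The kappaB letters were present upstream of Casp4, of 1 of the 2 starts of Nlrp3, and of Naip5, and none of the other 4 motifs was present in any of these windows. Of all 32817 promoter windows, 7.25% held the kappaB letters, 2.97% the response element, 2.3% the composite element, 7.01% the gamma-activated site and 6.75% the AP-1 site.

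The windows of Casp4 (chr9:5308599-5308848, plus strand), Nlrp3 (chr11:59541319-59541568, plus strand), Casp1 (chr9:5298267-5298516, plus strand) and Naip5 (chr13:100247337-100247586, minus strand), all GRCm38.p6 from RefSeq, are printed to set genes that rose, with and without the letters, beside a gene with the letters that did not pass the test. Capitals mark kappaB matches.
Casp4: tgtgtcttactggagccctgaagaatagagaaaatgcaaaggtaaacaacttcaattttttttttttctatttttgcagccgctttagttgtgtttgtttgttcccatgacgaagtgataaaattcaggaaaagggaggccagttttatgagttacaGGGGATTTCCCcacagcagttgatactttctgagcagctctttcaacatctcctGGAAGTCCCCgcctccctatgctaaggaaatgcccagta
Nlrp3: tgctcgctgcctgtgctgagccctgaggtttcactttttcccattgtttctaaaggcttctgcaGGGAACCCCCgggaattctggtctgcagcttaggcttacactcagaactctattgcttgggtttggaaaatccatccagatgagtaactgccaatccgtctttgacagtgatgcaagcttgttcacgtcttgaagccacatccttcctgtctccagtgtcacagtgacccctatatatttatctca
Casp1: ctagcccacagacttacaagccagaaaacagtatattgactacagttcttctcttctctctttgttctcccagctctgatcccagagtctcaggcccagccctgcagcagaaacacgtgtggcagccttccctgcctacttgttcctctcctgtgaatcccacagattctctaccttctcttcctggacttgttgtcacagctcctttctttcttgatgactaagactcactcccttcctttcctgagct
Naip5: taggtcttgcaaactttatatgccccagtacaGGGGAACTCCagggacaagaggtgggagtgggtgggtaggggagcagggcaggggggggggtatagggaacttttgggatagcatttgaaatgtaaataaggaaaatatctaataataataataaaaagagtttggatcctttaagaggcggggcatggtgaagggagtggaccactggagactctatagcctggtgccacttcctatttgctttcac
In Casp4 the first run of capitals holds 2 overlapping matches, at positions -93 to -84 and -92 to -83 from the start, and the second a match on the reverse strand at -39 to -30. A match is a run of letters and was not tested as a bound site, and its absence upstream of Casp1 covers this window only.

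The second comparison set TNC + TLR4i against TNC + vehicle. No group had the inhibitor alone, so a block of the TNC response cannot be told apart from an effect of TAK-242 itself. The 4 genes that rose with TNC were all called lower in TNC + TLR4i than in TNC + vehicle, by 3.84-fold for Casp4, 3.14-fold for Nlrp3, 2.23-fold for Casp1 and 1.91-fold for Gsdmd. At an unadjusted p below 0.05 limma gave 0 higher and 6 lower, beside 4030 higher and 3026 lower of all 18193 genes. Without a minimum fold there were 0 higher and 5 lower, beside 17.1% and 11.4% of all genes. Over all genes 4.25% were called higher and 4.05% lower, and the median change of the 7 genes was -0.93 against 0.00 for all genes. This comparison shares the TNC + vehicle arrays with the first, so the opposite signs are not independent of each other.

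On the log2 scale Casp4 changed by -1.94 ± 0.07 (limma adjusted p = 2.53e-09), the 103rd largest fall of 18193 genes. Nlrp3 changed by -1.65 ± 0.11 (adjusted p = 3.97e-07), Casp1 by -1.16 ± 0.07 (1.13e-07) and Gsdmd by -0.93 ± 0.08 (4.90e-06), ranking 146th, 301st and 413th. The inhibitor-treated arrays of these 4 genes lay entirely below the TNC + vehicle arrays, as did 5 of the 7 genes with Pycard and 18.4% of all genes (0 of the 7 lay entirely above, beside 23.8%). Without TNC + vehicle replicate 1 the changes were -1.97 for Casp4, -1.79 for Nlrp3, -1.15 for Casp1 and -0.99 for Gsdmd.

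Pycard was lower by 0.30 ± 0.07 with the inhibitor, with a limma adjusted p of 0.00898, and at 1.23-fold it was not called. Naip2 and Naip5 differed by -0.23 and -0.11 and did not pass (adjusted p = 0.0883 and 0.415). In Naip2 the inhibitor arrays were split, with replicate 1 at 9.20, inside the TNC + vehicle range, and the others at 8.94 and 8.89.

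The third comparison asked whether TNC in the presence of the inhibitor left any change relative to untreated cells. Of the 7 genes 0 were called by limma in either direction, while 0.0605% of all genes were called higher and 0.198% lower. Limma gave 0 higher and 3 lower of the 7 at an unadjusted p below 0.05, beside 879 higher and 842 lower of all 18193 genes. Casp4 stood at 9.41 ± 0.08 in TNC + TLR4i and 9.86 ± 0.07 in untreated cells (SD, n = 3), a difference of -0.45 ± 0.07 (limma adjusted p = 0.0110) that missed the fold threshold at 1.37-fold and ranked 73rd among the lowest of all genes. Leaving out TNC + TLR4i replicate 3 took its adjusted p to 0.0696 (difference -0.41). Without a minimum fold 0.506% of genes passed in this direction and 0.297% as higher. For Casp4, Nlrp3 and Pycard all TNC + TLR4i arrays lay below all untreated arrays, beside 6.56% of all genes, and 0 of the 7 lay above, beside 8.61%.

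Nlrp3 differed by -0.22 (adjusted p = 0.406), Gsdmd by -0.15 (0.627) and Pycard by -0.14 (0.582), each lower in TNC + TLR4i and short of the test. The intervals were -0.39 to -0.06, -0.30 to 0.00 and -0.27 to -0.01. Casp1 differed by -0.01 with an interval of -0.16 to 0.13 (adjusted p = 0.983), and Naip2 and Naip5 differed by 0.05 and -0.06 (0.949 and 0.906). A 1.5-fold change lay outside the interval for all of these, and inside it only for Casp4 (-0.60 to -0.30).

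The genes around these 7 were read from lists of the same pathway, 86 genes of which 72 were measured. With TNC 25 of the 72 rose and 2 fell, beside 3.74% and 4.05% of all genes. Without TNC + vehicle replicate 1 the counts were 24 and 2 (Ninj1 lost its call). With the inhibitor 24 of 72 were lower than in TNC + vehicle and 2 higher, beside 4.05% and 4.25% of all genes. Against untreated cells 3 were lower and 0 higher, beside 0.198% and 0.0605% of all genes. Limma gave 4 higher and 13 lower there at an unadjusted p below 0.05, beside 879 and 842 of all 18193 genes. The 3 called lower became 8 without untreated replicate 1 and 5 without TNC + TLR4i replicate 2. Of the 86 genes 14 were not analysed here. The shares of all genes given here also stand beside the counts of each list below.

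**Figure D3:**
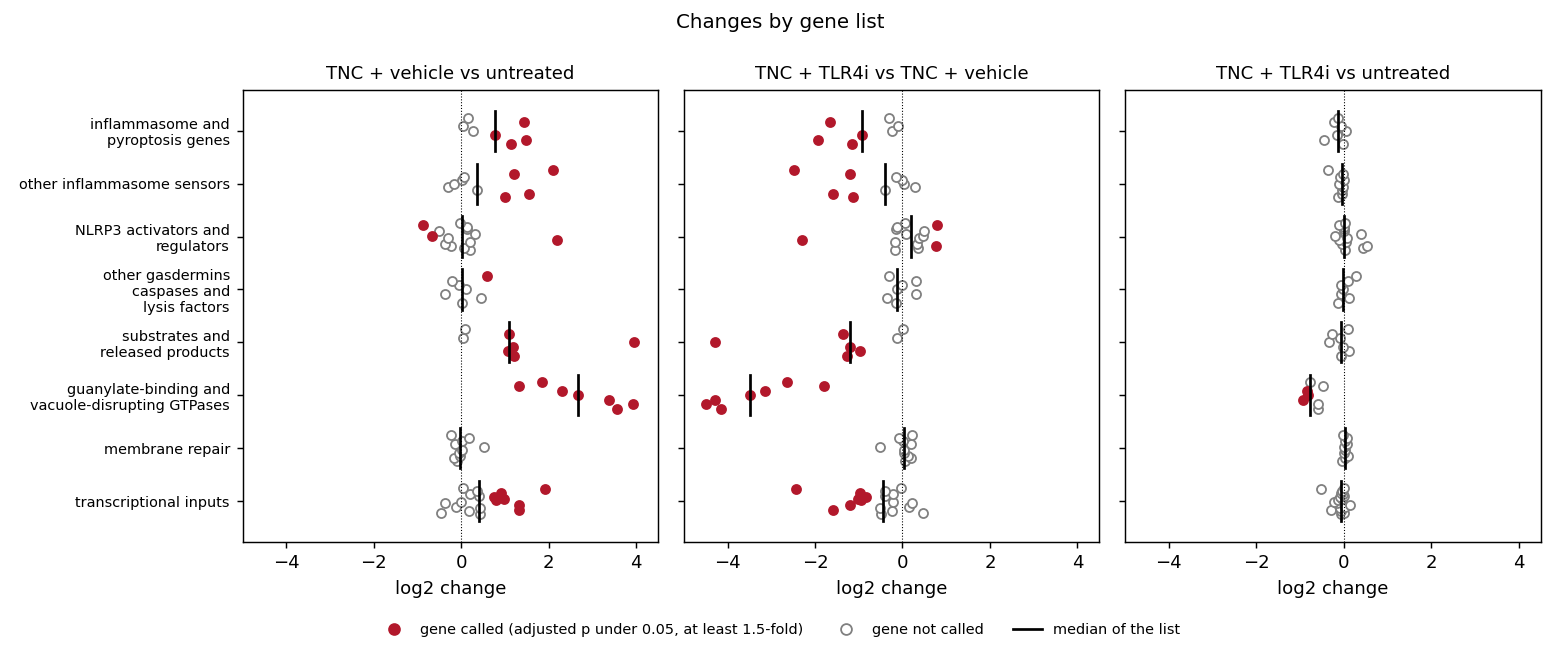
Log2 change (x axis) of each measured gene by list, in the 3 comparisons. Filled points are called genes, open points are not, and the vertical line is the list's median. The guanylate-binding list moved farthest, with a median of 2.68 with TNC, and membrane repair lay near 0 (median -0.03).

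Among other sensors, 4 of 9 rose with TNC and the same 4 were lower with the inhibitor. They were Zbp1, which senses Z-form nucleic acid (2.11 with TNC and -2.47 with the inhibitor against TNC + vehicle), Mefv, which encodes the sensor pyrin (1.55 and -1.58), Nod1, a receptor for bacterial peptidoglycan (1.21 and -1.21), and Aim2, the sensor of cytosolic DNA (1.00 and -1.12). Mefv had 7.32, 7.50 and 7.40 in TNC + TLR4i, 8.73, 9.14 and 9.10 in TNC + vehicle and 7.32, 7.59 and 7.41 in untreated arrays. Naip6, another copy of the Naip family, differed by 0.36 with TNC (adjusted p = 0.00359), short of the fold threshold like Naip2. Nlrp6, Nlrp9b, Nlrp10 and Nlrp12 were not called. They lay at 5.96 to 6.61 in every array, below the array medians of 6.72 to 6.74, so they carried little signal. Nlrp10 differed by -0.31 with TNC (limma adjusted p = 0.00901), which passed the test and missed the fold threshold.

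**Figure D4:**
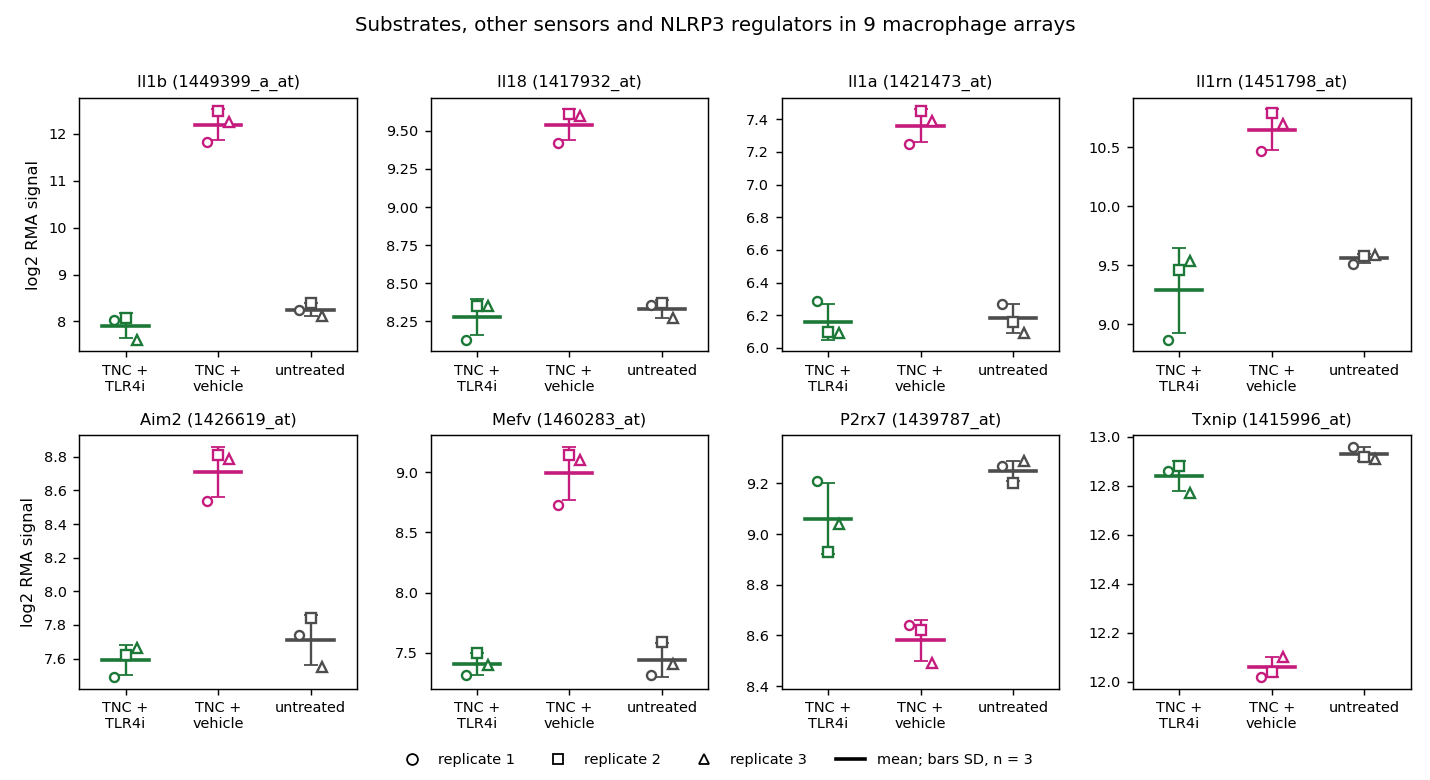
Log2 RMA signal (y axis, a separate range for each gene) in each array, by group, of the substrates Il1b and Il18, the released cytokine Il1a, the antagonist Il1rn, the sensors Aim2 and Mefv and the NLRP3 regulators P2rx7 and Txnip. Symbols are arrays, wide lines are means and bars are SD (n = 3). P2rx7 and Txnip are lower in the 3 TNC + vehicle arrays than in the 6 others, and the remaining 6 genes are higher there.

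Of the list of substrates and released products 5 of 7 measured genes rose with TNC. Il1b, whose product is cut by the Casp1 protease, had 8.03, 8.08 and 7.61 in TNC + TLR4i, 11.83, 12.49 and 12.25 in TNC + vehicle and 8.24, 8.40 and 8.11 in untreated arrays, a rise of 3.94 with TNC. Il18 had 8.13, 8.35 and 8.35 in TNC + TLR4i, 9.42, 9.61 and 9.60 in TNC + vehicle and 8.36, 8.37 and 8.27 in untreated arrays. Il18 rose by 1.21 (adjusted p = 2.96e-07) and was 1.27 lower with the inhibitor (3.06e-07). The other 3 were Il1a (1.19), a cytokine released by dying cells, and the natural inhibitors Il1rn (1.10) and Il18bp (1.08), which are not substrates. Il33 and Il1r2 were not called. They lay at 5.75 to 5.97 and 6.31 to 6.70, below the array medians of 6.72 to 6.74, so they carried little signal.

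Of 14 activators and regulators of NLRP3 that were measured, 1 rose and 2 fell with TNC, and the median was 0.02. The gene that rose, Mlkl (2.19), encodes the necroptosis pore, whose opening can trigger NLRP3 through loss of potassium. Those that fell were P2rx7, the ATP-gated channel that supplies a classical second signal (9.21, 8.93 and 9.04 in TNC + TLR4i, 8.64, 8.62 and 8.49 in TNC + vehicle, 9.27, 9.20 and 9.29 in untreated arrays; change -0.67, adjusted p = 1.96e-05), and Txnip, a thioredoxin-binding protein (-0.88, adjusted p = 1.21e-06). With the probe sets of a gene averaged P2rx7 changed by -0.49 and lost its call. With the inhibitor 2 genes of this list were called higher than in TNC + vehicle and 1 lower (Mlkl, -2.29). The higher ones were Txnip (0.78) and Cd36, a lipid scavenger receptor (0.76, limma adjusted p = 0.000112, and 0.63 without TNC + vehicle replicate 1). P2rx7 was 0.47 higher and short of the fold threshold. Nek7, the kinase that binds NLRP3, differed by -0.31 with TNC.

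Of 7 other gasdermins, caspases and lysis factors, 1 rose with TNC, Ninj1, which ruptures the membrane of dying cells (0.59, at the fold threshold; adjusted p = 2.88e-05; 0.57 and not called without TNC + vehicle replicate 1, 0.58 and not called without untreated replicate 3), and 0 were called with the inhibitor against TNC + vehicle, with 2 higher and 2 lower at an unadjusted p below 0.05 (limma). Gsdme, the gasdermin cut in apoptosis, differed by -0.21 with TNC and did not pass (limma adjusted p = 0.0919). Casp8 differed by 0.46 (adjusted p = 0.000778), which passed the test and missed the fold threshold. In TNC + TLR4i against TNC + vehicle Casp8 differed by -0.36 (adjusted p = 0.00295) and Gsdme by 0.30 (0.012), both short of the fold threshold. None of the 10 membrane repair genes was called in any of the 3 comparisons, with 2 higher and 1 lower with TNC at an unadjusted p below 0.05 (limma). Chmp4b differed by 0.51 with TNC, and passed the fold threshold at 0.60 after cyclic loess and 0.59 with averaged probe sets.

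Interferon-induced GTPases of the guanylate-binding and Irgm families, which act at pathogen vacuoles as effectors or as regulators, were measured for 7 of 9 listed genes. All 7 rose with TNC, and all 7 were lower with the inhibitor than in TNC + vehicle. With TNC Gbp2b rose by 3.92, Gbp2 by 3.57, Gbp3 by 3.37 and Gbp7 by 2.68. In TNC + TLR4i against untreated cells 3 of 7 were called lower, Gbp3 (-0.92), Igtp (-0.85) and Gbp7 (-0.81), and 7 of 7 were lower at an unadjusted p below 0.05. Igtp lost its call without TNC + TLR4i replicate 1 (limma adjusted p = 0.052). Several of these genes are close copies of each other, and shared probe binding was not tested. Gbp7 had 8.45, 8.61 and 8.37 in TNC + TLR4i, 11.82, 12.11 and 11.96 in TNC + vehicle and 9.07, 9.53 and 9.26 in untreated arrays.

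Of 18 transcriptional inputs 7 rose with TNC, led by Stat2 (1.91), which carries interferon signals, Irf7 (1.33) and Irf1 (1.32), and Nfkb2, a subunit of NF-kB (0.98, and 0.56 and not called with averaged probe sets). Irf2, known in mouse macrophages as an activator of Gsdmd transcription, differed by 0.44 (adjusted p = 0.000769), and Irf8, known to drive the Naip genes, by -0.36 (adjusted p = 0.00243). Both passed the test and missed the fold threshold. With the inhibitor 7 of the 18 were lower than in TNC + vehicle.

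The genes whose pattern over the 9 arrays was most like each member's were named by Pearson's r, as a description over arrays that fall into 3 groups. They were Herc6 (0.998), Ddx60 (0.997) and Sap30 (0.996) for Casp4, Ccrl2, Cdkn1a and Slco3a1 (0.998 each) for Casp1, Maff (0.995), Setdb2 (0.994) and Calhm6 (0.993) for Nlrp3, and Selenot (0.997), Rbm43 (0.996) and Pgs1 (0.995) for Gsdmd. The closest to Pycard were Tm4sf20 (0.970), Prxl2b (0.956) and Phlpp1 (0.955). Those for Naip2 were Sst (0.974), Kcnab3 (0.965) and Zdhhc16 (0.958), and those for Naip5 were Nodal (0.953), Nxph4 (0.950) and Slc36a3 (0.950). All were picked as the highest over all genes in only 9 arrays, so a high r does not show shared regulation. Naip5 overlapped between groups throughout, and its r to the other members was 0.29 to 0.55.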

How the data were processed

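Total RNA of 9 macrophage samples was hybridised to Affymetrix Mouse Genome U430 2.0 arrays. The authors ran RMA in Chipster, and the deposited values are log2 signals for each probe set. Of 45101 probe sets, 64 array controls were left out. The platform annotation gave 34945 probe sets 1 gene, 932 several and 9160 none. Precision is limited by the number of arrays, and RMA understates changes of dim genes. Each pair of groups (6 arrays) was fitted in R 4.3.3 using limma 3.58.1, two-sided, and the fit was tested on simulated data. Lists were summarised by counts and medians. Members and lists were chosen with earlier results of these data known, and the motifs after values were seen. Named genes were all members, up to 4 called genes of each list by size of change with TNC, Il1b, Il18, Aim2, Irf8 and Irf2, and the 3 genes most like each member. Other genes were picked once values had been seen. Alternatives tried were a fit over 9 arrays, the replicate block, a filter on dim probe sets, median centring, cyclic loess, a trended and a robust prior, array weights, averaged probe sets, other thresholds and leaving out each array.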

Additional observations from a re-analysis of the deposited data

How the results depend on the processing

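The 4 member genes called higher with TNC, and the 4 called lower with the inhibitor, remained 4 in number under all alternatives that kept the thresholds, including each array left out and the replicate block. A minimum fold of 2 left 3, since Gsdmd changed by less, and no minimum fold gave 5. In TNC + TLR4i against untreated, no minimum fold gave 1 member lower (Casp4) in place of 0. Leaving out arrays turned the sign of 3 values near 0. Naip5 with TNC ranged from -0.01 (without TNC + vehicle replicate 3) to 0.14. In TNC + TLR4i against untreated, Casp1 ranged from -0.05 to 0.02 (0.02 without TNC + TLR4i replicate 3, 0.01 without untreated replicate 3) and Naip2 from -0.05 (without TNC + TLR4i replicate 1) to 0.11. The test of Casp4 against untreated ranged from an adjusted p of 0.00045 to 0.0696 (limma).

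Of the pathway genes lower with TNC, 2 became 1 with averaged probe sets (P2rx7 lost its call), 10 with no minimum fold and 0 at 2-fold. Those higher with the inhibitor than in TNC + vehicle, 2, became 12 and 0 at these thresholds. Against untreated, the 3 lower became 5 with cyclic loess, 5 with no minimum fold, 0 at 2-fold and 3 to 8 with an array left out (8 without untreated replicate 1, 5 without TNC + TLR4i replicate 2), and the 0 higher became 3 with no minimum fold. The replicate block gave 4 lower (Irgm2 added), and Igtp lost its call with the trended and robust prior (adjusted p = 0.0875). Same-numbered arrays deviated from their group means together at -0.10 to 0.14 (Pearson's r over all probe sets), and other pairs at -0.12 to 0.10. These ranges overlap and do not tell whether same-numbered arrays shared a source. Among causes, only the thresholds' own construction was shown, and otherwise the cause was not tested. Probe signal near the array medians limits what Pycard's other probe sets can show.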

Other observations

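In the pathway lists 5 genes passed the test between TNC + TLR4i and untreated cells without reaching 1.5-fold, 3 higher and 2 lower. Cd36, a lipid scavenger receptor, had 12.06, 12.06 and 12.14 in TNC + TLR4i and 11.53, 11.58 and 11.57 in untreated arrays (difference 0.53, limma adjusted p = 0.0028). Card19, a mitochondrial protein, had 9.96, 10.05 and 9.88 in TNC + TLR4i and 9.56, 9.49 and 9.55 in untreated arrays (0.43, adjusted p = 0.0112). Panx1, a channel for ATP release, had 8.19, 8.21 and 8.18 in TNC + TLR4i and 7.72, 7.82 and 7.87 in untreated arrays (0.39, adjusted p = 0.0159). These genes were chosen after their values were seen. The 2 lower genes were Gbp2b (-0.58, adjusted p = 0.00253) and Gbp2 (-0.58, adjusted p = 0.0204). Over all genes 0.297% passed as higher and 0.506% as lower without a minimum fold. In TNC + vehicle arrays Panx1 was 8.11, 8.20 and 8.05, overlapping TNC + TLR4i, whereas Card19 was 9.81, 9.51 and 9.49 and Cd36 11.08, 11.42 and 11.49, both lower than in TNC + TLR4i.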
